A study of Hypsibius exemplaris with 24 samples.

Results

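Locus BV898_14257 of the freshwater tardigrade *Hypsibius exemplaris* was followed through exposure to bleomycin and the day after it. Published work on tardigrades names the locus TDR1, for a DNA damage response; the deposited table gives identifiers only, so that name was not checked here. All transcripts of the locus were taken, which was 1 transcript, BV898_14257.t01, of 20853 transcripts of 19939 loci. RNA came from pools of 50 whole cultured animals. The 7 bleomycin groups had spent 24 h in 100 µM bleomycin in mineral water and were frozen 0, 1, 3, 6, 9, 12 or 24 h after it. The control had spent the same time in the water alone. The control and the 0 h pools were frozen straight from the wells, whereas the pools of 1 h and later had been washed and kept at 18 °C on agar with the green alga *Chlorella* as food. Each of the 8 groups held 3 libraries, which the submitters call biological replicates, and the 24 libraries were all used.

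Bleomycin is a drug that cuts DNA through radicals formed at the helix and leaves single- and double-strand breaks. Animal cells sense such breaks, signal them through kinases, and raise the transcripts of many repair genes. TDR1 has been described as a small protein of tardigrades, with no counterpart known in other animals, that binds DNA and whose transcript rises after DNA damage.

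Levels are TPM, a length-corrected abundance relative to all transcripts of the same library. To compare libraries, each library's TPM were divided by its own scale factor, which gives scaled TPM. A log2 fold change here is the mean of log2(scaled TPM + 1) in the first group minus that in the second, and understates ratios at low levels. TPM do not tell how many reads were sequenced, and the depth behind each value is unknown. The number of transcripts above 0 ran from 14984 to 17173 per library, and 16490 passed the filter of at least 1 TPM in at least 3 libraries. BV898_14257 passed it and was above 0 in all 24 libraries. The control libraries correlated least with each other (lowest Pearson r 0.895 across transcripts), and 12 h replicate 3 had the lowest scale factor, 0.664.

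Replicates 1 to 3 of 0 h held BV898_14257 at 182, 398 and 328 scaled TPM, against 9.03, 13.2 and 15.7 in replicates 1 to 3 of the control. All 3 libraries of 0 h thus lay far above the controls, and replicate 1 of 0 h was the lowest of its group. The means were 302 ± 110 scaled TPM at 0 h and 12.6 ± 3.38 in the control (SD, n = 3 each), a ratio of 23.9. On the log2 scale the difference was 4.43 ± 0.30 (SE; limma, adjusted p = 1.22e-09). In whole animals, more cells with the transcript and more of it per cell cannot be told apart. At 0 h 619 of 16490 transcripts (3.75%) were called higher than control, and the call for BV898_14257 stands against that background. Leaving out replicate 2 or 3 of 0 h gave 395 and 366 called rises, leaving out replicate 1 or 3 of the control gave 341 and 405, and the locus was called in each of these fits.

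The place of the transcript within a library shifted accordingly. In replicates 1 to 3 of 0 h it stood at the 94.34, 97.55 and 96.89 percentile of the 16490 transcripts. In the controls it stood at the 43.47, 53.01 and 54.42 percentile, near the middle. By group mean it was the 539th most abundant of these transcripts at 0 h and the 8217th in the control.

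**Figure D1:**
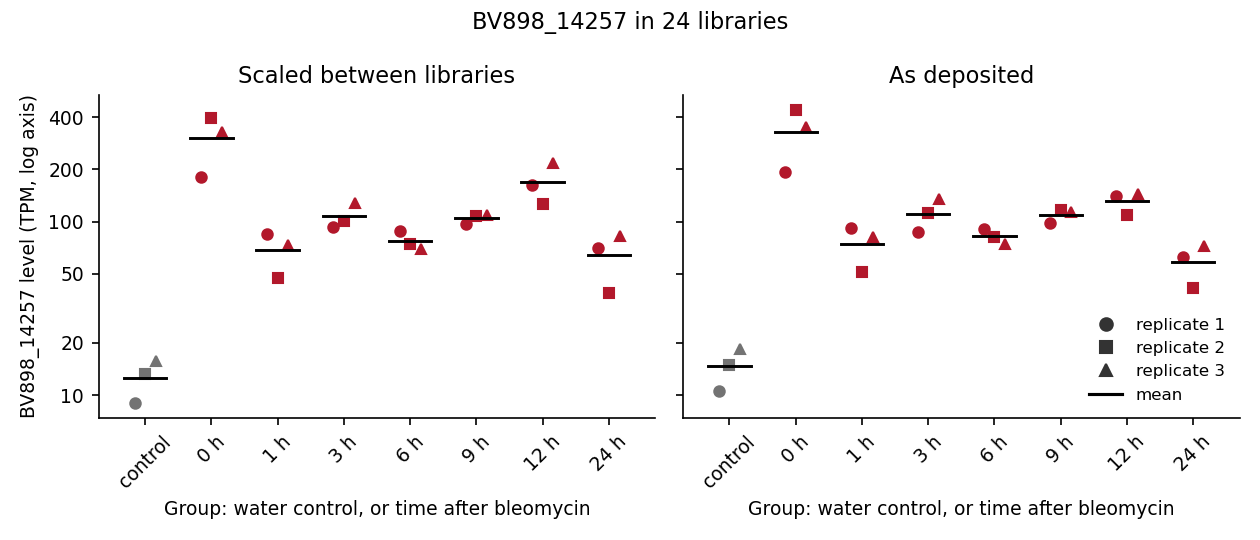
Level of BV898_14257 in each of the 24 libraries (log axis, TPM), scaled between libraries on the left and as deposited on the right, by group from the water control through 24 h after bleomycin. Points are libraries and bars are group means; all 21 bleomycin libraries lie above the 3 controls on both scales, with the highest level at 0 h.

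The level fell within the first hour after the exposure and stayed above the control thereafter. In scaled TPM, replicates 1 to 3 of 1 h were at 85.1, 47.2 and 73.8, those of 3 h at 93.5, 101 and 129, and those of 6 h at 88.1, 74.4 and 69.6. Replicates 1 to 3 of 9 h were at 97.6, 109 and 109, those of 12 h at 163, 127 and 219, and those of 24 h at 71.0, 38.6 and 82.4. Every one of these 18 libraries was below the 3 libraries of 0 h except 12 h replicate 3, which exceeded 0 h replicate 1. The lowest of all 21 bleomycin libraries, 24 h replicate 2 at 38.6, was still 2.45 times the highest control, replicate 3 at 15.7. All 21 bleomycin libraries lay above all 3 controls for 507 of 16490 transcripts (3.07%), and a ratio of at least 2 between the lowest and the highest was found for 89 (0.540%).

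Against the control, the log2 fold changes at 1, 3, 6, 9, 12 and 24 h were 2.34, 3.01, 2.55, 2.99, 3.64 and 2.21 in that order, each with a standard error of 0.30. All 6 passed the threshold, with adjusted p between 1.91e-08 at 12 h and 1.48e-05 at 1 h (limma). Of all transcripts tested, 9.45%, 16.4%, 10.9%, 13.1%, 25.0% and 25.2% were called higher at these times, in the same order. A call at 12 or 24 h therefore set the locus apart from the background less than the call at 0 h. From 1 h on, these contrasts also hold the wash, the move to plates with food and the hours after the control was frozen, whose part in the result was not tested. The 7 contrasts share the 3 control libraries.

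Between times after bleomycin, which do not use the control, the clearest step was the first one. At 1 h the level was 68.7 ± 19.5 scaled TPM, against 302 ± 110 at 0 h (SD, n = 3 each), which was 22.7% of the 0 h mean. The log2 difference was -2.09 ± 0.30 (SE; limma, adjusted p = 5.05e-05), where 10.2% of transcripts were called lower. The 1 h pools differ from the 0 h pools by the wash, the plate and the food as well as by the hour. No consecutive step from 1 to 12 h passed the threshold in this fit. The differences were 0.67 for 3 h against 1 h (95% interval 0.04 to 1.30, adjusted p = 0.187), -0.47 for 6 h against 3 h (-1.09 to 0.16, adjusted p = 0.466), 0.44 for 9 h against 6 h (-0.19 to 1.07, adjusted p = 1) and 0.65 for 12 h against 9 h (0.03 to 1.28, adjusted p = 0.111). These intervals leave room for changes of more than 2-fold, and with library quality weights 3 h was called higher than 1 h (0.79, adjusted p = 0.0407).

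After 0 h, the highest mean was that of 12 h, which lay above 1 and 6 h but was not told from 3 and 9 h. The mean was 170 ± 46.1 scaled TPM at 12 h and 77.4 ± 9.60 at 6 h (SD, n = 3 each), a log2 difference of 1.09 (limma, adjusted p = 0.00861), where 19.1% of transcripts were called higher. Against 1 h the difference was 1.30 (adjusted p = 0.00218), where 20.4% were called higher. Scale factors were lowest at 12 h, 0.796 ± 0.114, beside 1.06 ± 0.0331 at 6 h (SD, n = 3 each), which raise their scaled values. In deposited TPM, replicates 1 to 3 of 12 h had 141.5, 109 and 145, and those of 6 h had 90.8, 81.6 and 74.4. The 12 h libraries were the higher ones on that scale too, but the difference from 6 h was 0.67 with an adjusted p of 0.0679. It was 0.73 with quantile normalization (adjusted p = 0.0564) and 0.89 without 12 h replicate 3 (adjusted p = 0.0535). The difference from 1 h passed the threshold under both other scalings, at 0.84 or more in every alternative fit that kept all libraries. The difference from 3 h was 0.63 (adjusted p = 0.139), and with unscaled TPM 0.25 (adjusted p = 0.537). That from 9 h, 0.65 in the scaled values, was 0.26 with unscaled TPM (adjusted p = 0.517). A high of its own at 12 h was therefore not shown.

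From 12 to 24 h the level fell again. It was 64.0 ± 22.7 scaled TPM at 24 h and 170 ± 46.1 at 12 h (SD, n = 3 each), a log2 difference of -1.43 (limma, adjusted p = 0.00295), where 9.35% of transcripts were called lower. Fitted to these 6 libraries alone the adjusted p was 0.0580. Against 0 h the 24 h level was lower by a log2 fold change of -2.22 (adjusted p = 5.97e-06), where 21.3% of transcripts were called lower. At 24 h the locus remained at 5.06 times the control mean in scaled TPM and at 4.0 times in deposited TPM.

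Ordered by mean log2 level, the groups ran from 0 h through 12, 3, 9, 6, 1 and 24 h down to the control. Of the 7 pairs of neighbours in that order, 2 passed the threshold. These were 0 h and 12 h (12 h lower by a log2 fold change of -0.79, adjusted p = 0.0365, where 22.2% of transcripts were called lower) and 24 h and control. The difference between 12 h and 0 h did not pass without 0 h replicate 2 (adjusted p = 0.183), 0 h replicate 3 (0.107), 12 h replicate 1 (0.0739) or 12 h replicate 2 (0.153), nor with quality weights (0.0780). Among the groups of 12, 3, 9, 6, 1 and 24 h, no neighbours in the order passed the threshold. The adjusted p also depends on the other transcripts in each contrast. The log2 difference of 24 h from 3 h was -0.80, near the -0.79 of 12 h from 0 h, but was not called (limma, adjusted p = 0.0785). Over all 28 pairs of groups, 16 differed by limma: the 7 pairs with the control, the 6 with 0 h, and 12 h against 1, 6 and 24 h. With unscaled TPM 24 h was also called lower than 3 h (-0.93, adjusted p = 0.0322) and 9 h (-0.92, adjusted p = 0.0243), and with quantile normalization likewise (-0.97, adjusted p = 0.0280, and -0.98, adjusted p = 0.0187).

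The spread between replicate pools was uneven. The coefficient of variation of the scaled level was 26.7% in the control, and 36.5%, 28.3%, 17.3%, 12.4%, 6.08%, 27.2% and 35.5% at 0, 1, 3, 6, 9, 12 and 24 h, in that order. At 9 h the 3 pools were thus within a narrow range, while at 0 h replicate 2 held more than double the level of replicate 1. The fit gives every group the same standard error and does not carry this difference.

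Among the risen transcripts, the place of BV898_14257 varied between times, in lists of very different length. By log2 fold change it was 16th of 619 at 0 h (2.58% from the top), 192nd of 1559 at 1 h (12.3%), 122nd of 2701 at 3 h (4.52%) and 169th of 1794 at 6 h (9.42%). It was 121st of 2157 at 9 h (5.61%), 105th of 4124 at 12 h (2.55%) and 676th of 4149 at 24 h (16.3%). By log2 fold change and as a share of the list, 0 h and 12 h were thus its best places and 24 h its lowest. By the difference of mean scaled TPM it was 47th, 357th, 427th, 414th, 379th, 690th and 1249th at 0, 1, 3, 6, 9, 12 and 24 h. By the moderated statistic it was 31st, 119th, 83rd, 98th, 74th, 66th and 516th, in the same order and the same lists. Single libraries moved the length of the list at 1 h, to 982 when its replicate 1 was left out and to 926 when control replicate 2 was left out. Leaving out control replicate 2 put the rank at 24 h at 409th.

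BV898_10457, for which the files give no name, was first at each of the 7 times, with log2 fold changes from 7.75 at 1 h to 9.38 at 12 h. It averaged 379 scaled TPM at 0 h, near the 302 of BV898_14257, but 0.348 in the control. Its larger fold change thus came with a control level near 0, where BV898_14257 had 12.6. Directly above BV898_14257 at 0 h stood BV898_15545 (4.70), from 0.532 scaled TPM in the control, and directly below it BV898_13871 (4.32), from 3.36. Over the 7 times, 13 of the 14 transcripts next to it in rank had a lower control mean than BV898_14257. The exception was BV898_10352, directly below it at 24 h, at 388 scaled TPM at 24 h and 77.0 in the control. Among all 16490 transcripts the control mean of BV898_14257 ranked 8217th. The share of each risen list with a lower control mean is not given here, so the count of 13 is a description.

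**Figure D2:**
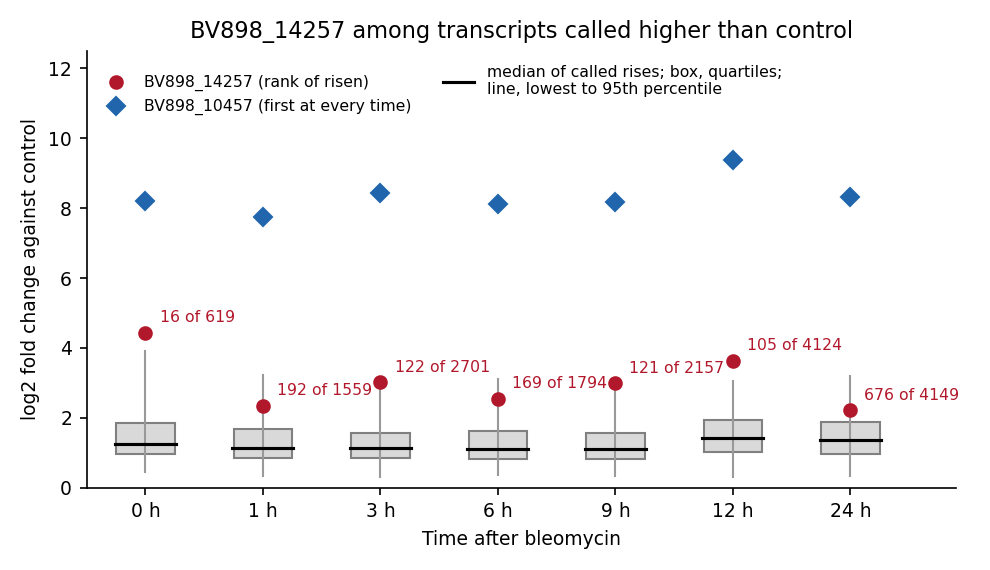
Log2 fold change against control of BV898_14257 (red, with its rank among the called rises) at each time after bleomycin, with BV898_10457 (blue), first at every time. Grey boxes give quartiles and medians of the transcripts called higher at that time, and lines run from the lowest to the 95th percentile; BV898_14257 stands furthest above the box at 0 h and nearest to it at 24 h.

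Transcripts called higher than control at all 7 times numbered 225 of 16490 (1.36%), and BV898_14257 was among them. Within the 225 it ranked 31st by level at 0 h, 54th by the mean of its 7 log2 fold changes (3.03, median of the set 2.01) and 46th by the smallest of them (2.21, median 1.30). Its control level, 12.6 scaled TPM, was 101st in the set, whose median was 9.72. By these measures it was above the middle of the set, and not at its head.

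Its course over time differed more from theirs, as a description, since all share the control and 0 h libraries. The median log2 fold changes of the 225 at 0, 1, 3, 6, 9, 12 and 24 h were 1.61, 1.94, 2.14, 1.89, 1.92, 2.49 and 2.14. The largest of the 7 changes fell at 12 h for 103 of them and at 0 h for 34 (15.1%), BV898_14257 included. The median change from 0 to 1 h was 0.00, and 20 of the 225 (8.89%) were called lower at 1 h than at 0 h, close to the 10.2% of all transcripts tested. Both conditions together held for 0.121% of all. BV898_14257 fell furthest of the 225 in that hour, by 2.09 on the log2 scale, ahead of BV898_12219 (-1.48) and BV898_04948 (-1.47). It held that place in each of the alternative fits run for it except with quality weights, where it was 2nd of 763. Among all 619 transcripts risen at 0 h, 195 (31.5%) were called lower at 1 h, beside 10.2% of all transcripts, and these 619 had been chosen for high values at 0 h. BV898_14257 was 15th by the size of the fall. By the change from 0 to 24 h it was 7th of the 225.

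**Figure D3:**
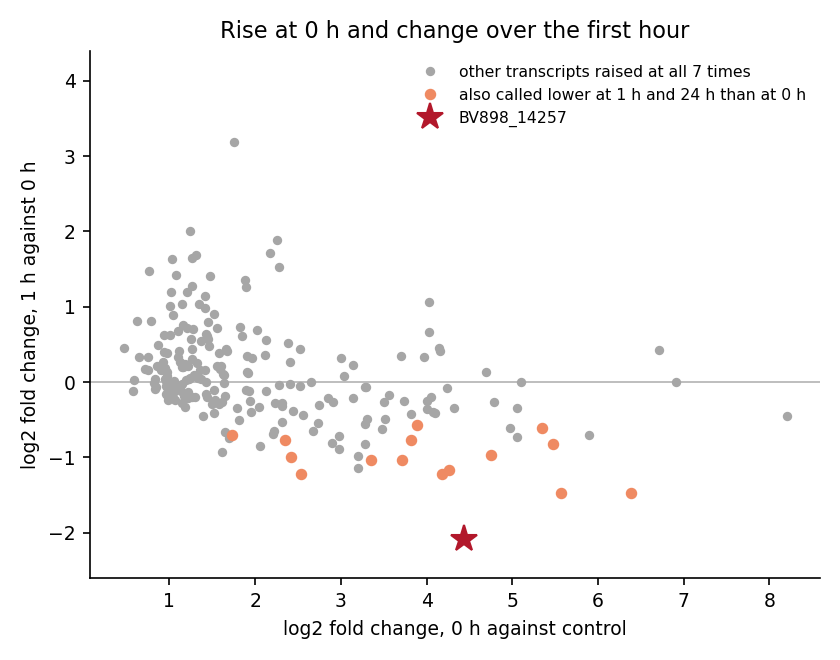
The 225 transcripts called higher than control at all 7 times, by log2 fold change at 0 h against control (horizontal) and at 1 h against 0 h (vertical); both axes use the 0 h libraries. Orange points are the other transcripts also called lower at 1 h and at 24 h than at 0 h, and the star is BV898_14257, the lowest point of the plot at -2.09.

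Called higher at all 7 times, lower at 1 h than at 0 h and lower at 24 h than at 0 h were 16 transcripts (0.0970%), BV898_14257 among them. Without 0 h replicate 2, and without 1 h replicate 1, they numbered 10. With the condition on 24 h alone there were 44 (0.267% of all transcripts tested). These were 19.6% of the 225, close to the 21.3% of all transcripts called lower at 24 h than at 0 h. The share of all transcripts called lower at both 1 h and 24 h is not given here. Within the 16, levels at 0 h ran from 23.5 scaled TPM for BV898_15820 to 1627 for BV898_01166. BV898_14257 had the largest rise of the 16 from 1 to 12 h, by 1.30 on the log2 scale, and was 37th by it among the 225. By contrast BV898_04948 had mean levels of 253 scaled TPM directly after the exposure, 97.4 an hour later and only 15.8 at 12 h.

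The transcripts most like BV898_14257 were sought by Pearson r of log2(TPM + 1), in deposited TPM, over the 24 libraries. Since they were chosen by r, and the libraries share 8 groups, r is a description here. Of 16489 other transcripts, 1 had r above 0.9, 41 above 0.8 and 105 above 0.7, and the median was -0.0981. The highest was that of BV898_03659, with r = 0.933 (Spearman rho 0.724). For BV898_03659, replicates 1 to 3 of 0 h had 49.6, 89.4 and 88.1 TPM, against 4.89, 5.24 and 4.63 in the controls. As with BV898_14257, replicate 1 was the lowest of the 0 h group, and at 24 h replicate 2 was the lowest, at 15.0 TPM beside 29.6 and 30.1. The lowest replicate was also shared at 6 and 12 h, but not at 1, 3 and 9 h or in the control. At 1 h, replicate 2 was the highest for BV898_03659 (38.0 TPM) and the lowest for BV898_14257 (51.2 TPM). The other 4 were BV898_02637 (r = 0.893), BV898_04949 (0.891), BV898_07590 (0.881) and BV898_12880 (0.867). The files give none of them a name.

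Their rise over control and their lower levels after 0 h are favoured by the choice by r over the same libraries and are a description. Their levels covered a wide range, with 910 scaled TPM at 0 h and 46.6 in the control for BV898_07590, and 34.9 at 0 h and 5.19 in the control for BV898_12880. Their log2 fold change from 0 to 1 h was -0.70 to -1.22, against -2.09 for BV898_14257. At 12 h the mean of BV898_03659 was 42.7 scaled TPM, against 25.0 at 6 h, and that of BV898_07590 was 366, against 408. In deposited TPM the libraries of BV898_03659 overlapped between these times, with 42.9, 22.3 and 34.9 at 12 h and 30.5, 26.9 and 22.4 at 6 h.

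Much of the likeness lay in the differences between groups, of which the step between control and bleomycin was a part. Over the 21 bleomycin libraries alone, r was 0.828 for BV898_03659, and between 0.673 and 0.769 for the other 4. Of the deviations from the group means, which leave out the groups, r was 0.546 for BV898_03659, 0.220 for BV898_02637 and below 0.14 for the other 3. Without the 2 libraries farthest from the median of BV898_14257, replicates 1 and 2 of the control, r was 0.881 for BV898_03659 and 0.789 to 0.824 for the others. Under Spearman's rho, and over the 21 bleomycin libraries, none of the 5 was among the 5 highest.

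The lowest r were those of BV898_02896 (-0.814) and BV898_02897 (-0.804), whose numbers follow each other. BV898_02897 was at 3.83 scaled TPM at 0 h and 48.1 in the control, and BV898_02896 at 2.12 at 0 h and 27.9 in the control. At 1 h they averaged 14.4 and 10.8. These values are a description, since the 2 were chosen for moving against BV898_14257 in the same libraries. At 12 h they averaged 4.90 and 1.58, and at 9 h 6.69 and 3.43.

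**Figure D4:**
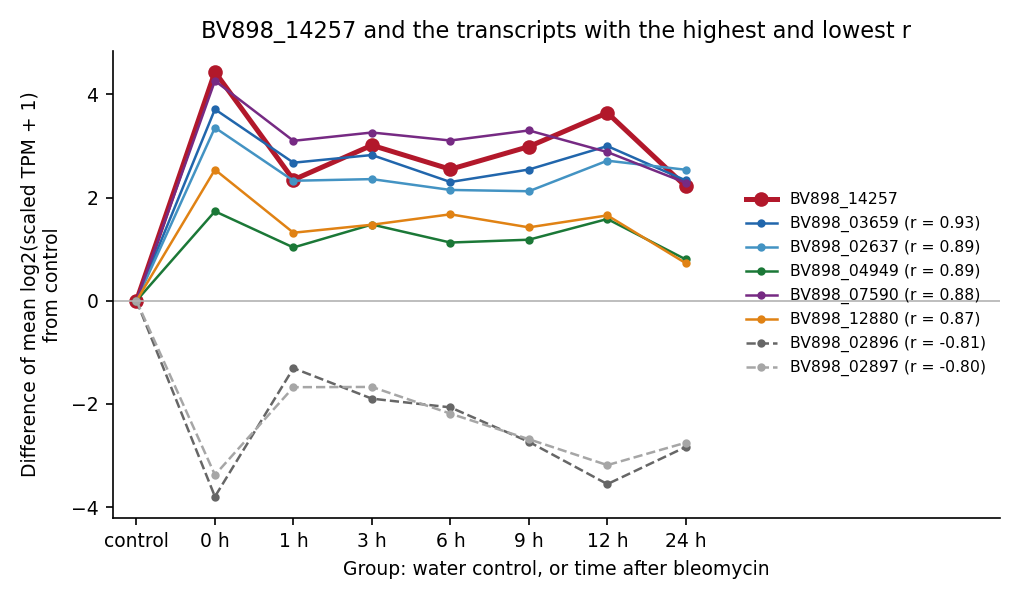
Difference of mean log2(scaled TPM + 1) from control, by group, for BV898_14257 (thick red), the 5 transcripts with the highest r and the 2 with the lowest (dashed). BV898_14257 shows the deepest fall from 0 to 1 h of the upper 6 and its next highest mean at 12 h, not told from those at 3 and 9 h, and the dashed lines are lowest at 0 h and 12 h.

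Loci with the 5 numbers below and above that of the locus were also read, since numbers in such annotations often follow the scaffold, though no position was checked here. They held 12 transcripts, 10 of which passed the filter. None of the 10 was called higher than control at 0 h by limma, where 3.75% of all transcripts were called higher. At an unadjusted p under 0.05, 2 of the 10 were higher, and the share of all transcripts at that threshold is not given here. BV898_14256, the next lower number, was called lower: it was at 33.0 scaled TPM at 0 h and 75.9 in the control, a log2 fold change of -1.20 (adjusted p = 0.0231), where 4.12% of transcripts were called lower. It was called lower at 1, 3 and 6 h too. BV898_14258.t01, the next higher number, was at 52.4 at 0 h and 12.9 in the control, with an adjusted p of 0.0740. Another transcript of that locus, BV898_14258.t03, was at 22.4 at 0 h and 16.2 in the control, and was called lower than control at 12 h (-2.75, adjusted p = 0.00136) and 24 h (-2.17, adjusted p = 0.00897). BV898_14259 was called higher at these same times, by 1.84 at 12 h (adjusted p = 4.13e-04). BV898_14260, at 71.35 scaled TPM at 0 h and 71.45 in the control, was called lower from 3 h on, at 5 of the 7 times, with 35.6 at 12 h (-0.99, adjusted p = 9.14e-05). BV898_14253 was called higher at 6 of the 7 times, 0 h excepted, with 43.3 scaled TPM at 24 h and 10.1 in the control. These 5 loci were named after their values were seen. From 1 to 24 h, between 9.45% and 25.2% of all transcripts were called higher than control. The shares called lower than control at these times are not given here. The later calls are therefore not read as particular to these loci.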

How the data were processed

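The values are TPM per transcript in 1 table, deposited by the authors with 1 column per library. The submitters' processing notes name RSEM 1.2.26, Bowtie2 2.2.9, DESeq2 1.22.2 and FastQC 0.11.3 without saying what each did. Which genome build was used is not given in the sources used here. Such estimates can split reads between isoforms or near-identical copies. Columns were matched to samples by name, and 0 library pairs were identical.

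TPM were divided by the median ratio to the geometric mean over 12190 transcripts above 0 in all libraries (factors 0.664 to 1.18). The 16490 transcripts that reached 1 TPM in 3 or more libraries were analysed as log2(scaled TPM + 1) with limma 3.58.1 in R 4.3.3, a mean per group over 24 libraries, robust eBayes with trend, two-sided, Benjamini-Hochberg over transcripts within each contrast, threshold 0.05. An exact permutation test of 3 against 3 libraries cannot go below 0.1. The limma fit was tested on simulated data, with normal noise and known shifts at 0 h. That simulation did not test the scaling or the filter. Figures used matplotlib 3.10.9 in Python 3.11.15.

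The locus, lists and tests were chosen with earlier results of these data known. Named by rule were the 5 highest and 2 lowest r, and the ranks first, directly above and directly below the locus at each time. Lists of repair, histone, protectant and tissue genes match product names; the table pairs none with its identifiers, so these lists were not used here, and no sequence is shown. The pairs beyond neighbours, and counts under alternatives, were added after seeing the data.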

Additional observations from a re-analysis of the deposited data

Results flagged for a closer look

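The level of BV898_14257 differed between times after bleomycin, by limma tests of the differences. It was lower at 1 h than at 0 h (log2 fold change -2.09, limma, adjusted p = 5.05e-05, lower in 3 of 3 libraries), at 24 h than at 12 h (-1.43, adjusted p = 0.00295, lower in 3 of 3), and at 24 h than at 0 h (-2.22, adjusted p = 5.97e-06, lower in 3 of 3). The pools of 1 h and later had also been washed, plated and fed, and those of 0 h had not; the part of these steps in the comparisons with 0 h was not tested.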

How the results depend on the processing

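The 7 rises against control, the fall from 0 to 1 h and the lower level at 24 h than at 0 h kept their direction and their side of the threshold under all 17 alternatives run for each. The rise at 0 h ranged from 4.07 to 4.68 on the log2 scale over the fits that kept all replicates of the groups compared, and from 4.20 to 4.76 when 1 library was left out. With only the 6 libraries of 12 and 24 h, the change between them was -1.43 with an adjusted p of 0.0580. With quality weights per library, 3 h was above 1 h by 0.79 (adjusted p = 0.0407). The 2 neighbours that differed in the order of levels became 1 with quality weights and 1 with a 2-fold change also required, and 1 to 2 when 1 library was left out. The order of 3 and 9 h turned with quantile normalization. With quality weights the mean of 24 h lay above those of 1 h (0.20) and 6 h (0.03), and neither difference was called. The order of 24 and 1 h turned without 1 h replicate 1 (0.04). That of 6 and 1 h turned without 1 h replicate 2 (-0.04), and that of 9 and 3 h without 3 h replicate 3 (0.11). Unscaled TPM shifted the log2 fold changes of all transcripts by a median of -0.50 at 12 h, and the list of risen transcripts there to 2596, with BV898_14257 at rank 113. Quality weights gave 2135, 4003, 4218, 3562 and 3774 risen transcripts at 0, 1, 3, 6 and 9 h, and 763 at all 7 times, of which 28 were also lower at 1 h and at 24 h than at 0 h. A pseudocount of 0.1 put the rank of the locus at 37 at 0 h and 259 at 12 h, and one of 5 at 10 and 63. With a 2-fold change also required, 958, 1629, 1065 and 1273 transcripts were risen at 1, 3, 6 and 9 h. Of the 5 transcripts most like the locus, 0 stayed among the best 5 by Spearman's rho, 0 over the 21 bleomycin libraries, 0 by deviations from the group means, 2 by the 8 group means, 2 without the 2 farthest libraries, and 3 to 5 when 1 library was left out; the cause was not tested. Equal replicate numbers did not clearly mark pairs. Of 84 same-numbered pairs of libraries in different groups, 15 had deviations correlated above 0.1 (lowest -0.303, highest 0.409). Their median was 0.000368, beside 0.00446 for pairs of different number. Of 24 libraries, 12 correlated best with their own number, and the number to be expected without pairing is not given here. With the replicate number as a block, the log2 fold change at 0 h was 4.43 (adjusted p = 2.38e-09), risen transcripts at 0 h numbered 632, and no call on the locus changed. TPM hide the depth, which leaves the counting error unknown.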

Other observations

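Of the 16 transcripts called higher than control at all 7 times and lower at 1 h and at 24 h than at 0 h, 2 carry consecutive numbers, BV898_04948 and BV898_04949, picked out after their values were seen. BV898_04948 averaged 10.4 scaled TPM at 24 h and 253 at 0 h, with 2.35 in the control. BV898_04949 averaged 70.0 at 24 h and 132 at 0 h, with 39.6 in the control, and was among the 5 transcripts most like BV898_14257. Both transcripts with the lowest r, BV898_02896 and BV898_02897, also carry consecutive numbers. Whether such loci lie side by side was not tested.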
